A study of Homo sapiens with 6 samples.

Results

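The 8 genes described here encode the glucose-sensing transcription factors MondoA (MLXIP) and ChREBP (MLXIPL), their partner MLX, and the alpha-arrestins TXNIP and ARRDC1 to ARRDC4. They were found by Ensembl gene identifier among the 60668 genes of the deposited RNA-seq table, all 8 were present, and 7 had reads. In MiaPaCa-2 cells, an established human pancreatic ductal adenocarcinoma (PDAC) line, 48 h of low glucose lowered TXNIP to 0.459 of its control level and raised MLXIPL to 2.44 times its control level. ARRDC3 was also higher, MLXIP and ARRDC2 did not pass the test, and ARRDC4 had no read in any library.

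MondoA and ChREBP are basic helix-loop-helix leucine zipper proteins that respond to glucose 6-phosphate, the product of hexokinase. Each pairs with MLX, and the pair binds carbohydrate response elements, which are tandem E-box-like sequences, near genes such as TXNIP and ARRDC4. Alpha-arrestins are adaptor proteins that link membrane cargo to ubiquitin ligases and endocytosis. TXNIP, which also binds thioredoxin, promotes the internalization of glucose transporters, and this loop lowers glucose uptake when glucose is plentiful.

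The 3 low-glucose samples were kept in 2.5 mM glucose for 48 h and the 3 control samples in 25 mM glucose. The methods describe a standard DMEM with 25 mM glucose and make low-glucose medium from a separate glucose-free DMEM. Glutamine and plasmocin are named for the standard medium and not in that low-glucose recipe. Whether the sequenced controls had the standard medium is not stated there. A part of the base medium in the differences was not tested. Both groups were the same line, obtained from ATCC, and the labels name no genetic change for either. The treatment protocol of the labels reads 2.5 mM for the controls too, but the titles, the treatment field and the series' design text set the controls apart. The sample descriptions tie low-glucose libraries 1 and 2 to their columns. The third low-glucose library and the controls were placed by the run of their column names, and control libraries are numbered here by increasing depth.

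Depth was 9741183 to 10190154 reads on genes in control and 10595408 to 13733477 in low glucose. Replicates of control differed more than those of low glucose, as the chi-square divided by the number of genes, near 1 for counting noise alone, was 4.63 to 18.9 between controls and 1.90 to 2.89 between low-glucose libraries. Control libraries 2 and 3 differed most and also lay apart in their trend with gene length (Spearman's rho across 15187 genes of 0.19 and -0.15, against -0.08 to 0.06 in the other 4). The keratins KRT8, KRT18 and KRT19 of this carcinoma line and the mesenchymal marker VIM had at least 1925 normalized reads in every library, and CDKN2A, which is deleted in this line, had 0. The keratins were lower in low glucose (KRT8 by a log2 fold change of -1.01), and VIM was higher at 0.42 (limma adjusted p = 0.00819), which 5 of 17 alternatives did not call, control library 1 and each single low-glucose library left out among them. Of 9 markers of leukocytes, endothelium, fibroblasts, acinar and islet cells, 7 were at 0 throughout, and the sum of the 9 was 4 to 10 reads in a control and 3 to 14 in a low-glucose library. These values moved beside the results below and their part in them was not tested.

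The promoter of TXNIP carries the element through which MondoA and ChREBP are known to act, so it is shown here with the E-box-bearing stretches of ARRDC4 and MLX. The sequences are from RefSeq (GRCh38.p14), whose table held 11 windows for the 8 genes, each 250 bases before to 50 bases after a transcription start, and they are written on the strand of the gene. Capitals mark the tandem motif (a pair of CACGNG on 1 strand with 5 bases between them) in TXNIP (chr1:145996530-145996829, minus strand) and the E-box CACGTG in ARRDC4 (chr15:97960456-97960535, plus strand) and MLX (chr17:42567013-42567092, plus strand).
TXNIP: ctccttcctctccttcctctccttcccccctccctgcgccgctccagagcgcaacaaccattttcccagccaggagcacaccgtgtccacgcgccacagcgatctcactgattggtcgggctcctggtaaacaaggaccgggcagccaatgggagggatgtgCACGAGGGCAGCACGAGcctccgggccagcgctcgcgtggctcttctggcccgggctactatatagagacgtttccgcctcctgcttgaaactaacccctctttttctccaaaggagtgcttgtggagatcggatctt
ARRDC4: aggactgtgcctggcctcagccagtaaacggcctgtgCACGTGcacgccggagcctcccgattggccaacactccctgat
MLX: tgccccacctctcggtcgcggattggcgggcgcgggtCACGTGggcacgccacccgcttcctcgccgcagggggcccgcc

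The tandem motif, searched on both strands, lay 88 to 72 bases before 1 of the 2 TXNIP starts and in no other window of the 8 genes. Of all 35116 windows in the table, 20 held it (0.0570%). Only this spacing and orientation of the pair was searched. Other forms of the carbohydrate response element would be missed, so the count does not show which genes lack one. The E-box lay 210 to 205 bases before the ARRDC4 start and 50 to 45 bases before the MLX start, and 7.26% of all windows held it. The forkhead motif TGTTTAC, searched likewise, lay 124 to 118 bases before the same TXNIP start on the opposite strand. It also lay 29 to 23 bases before 1 of the ARRDC3 starts on the strand of the gene, against 3.42% of all windows. None of these 3 motifs overlapped another there, and no window of ARRDC1, ARRDC2, MLXIP or MLXIPL held any of them. A match of letters is a description of the reference and not a measured binding site.

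TXNIP (ENSG00000265972.6) occupies chromosome 1, 145992435 to 145996579, minus strand (hg38, as for all positions of genes here). The normalized value of a gene, which is the read count divided by the size factor of the library, was 1164, 1086 and 1138 for TXNIP in control libraries 1 to 3. It was 534, 528 and 493 in the low-glucose libraries. The highest low-glucose value lay far below the lowest control value, and the spread within each group was small. The mean fell from 1129 ± 39.8 (SD, n = 3) to 518 ± 22.5 (SD, n = 3), which is -1.12 on the log2 scale with a standard error of 0.0795 (limma adjusted p = 2.38e-07). Counts rested on 535 to 1064 reads per library. Of the 21101 genes tested, 447 (2.12%) had a lower log2 fold change than TXNIP, and 2134, TXNIP included, changed at least as much in either direction. Because RNA was measured in a pool of cells, fewer cells with the transcript and less of it per cell cannot be told apart.

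MLXIPL (ENSG00000009950.16, chromosome 7, 73593194 to 73624543, minus strand) encodes ChREBP, the glucose-responsive activator best known from liver and fat tissue. Its normalized value was 61.7, 70.2 and 105 in control and 184, 215 and 178 in low glucose. The groups did not overlap, although control library 3 stood above the other two. The mean rose from 78.9 ± 22.9 (SD, n = 3) to 192 ± 20.1 (SD, n = 3), which is 1.31 on the log2 scale with a standard error of 0.181 (limma adjusted p = 8.61e-05). Of the tested genes, 5.39% had a larger log2 fold change. Behind the values are 55 to 98 reads in a control and 191 to 235 in a low-glucose library. Reads were summed over the gene, so the long and short forms of ChREBP, which start at different promoters, were not separated.

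MLXIP (ENSG00000175727.14, chromosome 12, 122078756 to 122147344, plus strand) encodes MondoA, the paralog that is most abundant in skeletal muscle. It had 950, 1229 and 860 normalized reads in control and 850, 851 and 835 in low glucose. The groups did not overlap, but control library 2 stood apart and the gap between control library 3 and the low-glucose libraries was small. The log2 fold change of -0.24 did not pass (95% interval -0.48 to -0.01, limma adjusted p = 0.107). It passed without control library 3 (-0.35, limma adjusted p = 0.00988) and after removal of a GC trend (-0.33, limma adjusted p = 0.0406). It shrank to -0.096 without control library 2 (limma adjusted p = 0.343) and to -0.092 with quantile normalization (0.535), in a range of 0.00988 to 0.535 over 17 alternatives.

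MLX (ENSG00000108788.11, chromosome 17, 42567072 to 42573239, plus strand) is the obligate partner of both sensors. Its normalized value was 782, 683 and 839 in control and 638, 572 and 696 in low glucose. The highest low-glucose library lay above the lowest control library, so the groups overlapped. The log2 fold change of -0.27 (standard error 0.0991) had a limma adjusted p of 0.0491, which 13 of 17 alternatives did not call, with adjusted p-values of 0.00165 to 0.236. The call was lost when any library other than control library 2 was left out. MLX shares 775 bp of exon with PSMC3IP on the opposite strand, which had 253 to 424 reads and a log2 fold change of -0.27 (limma adjusted p = 0.140), and the strand setting of the counting is not given in the sources used here.

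**Figure D1:**
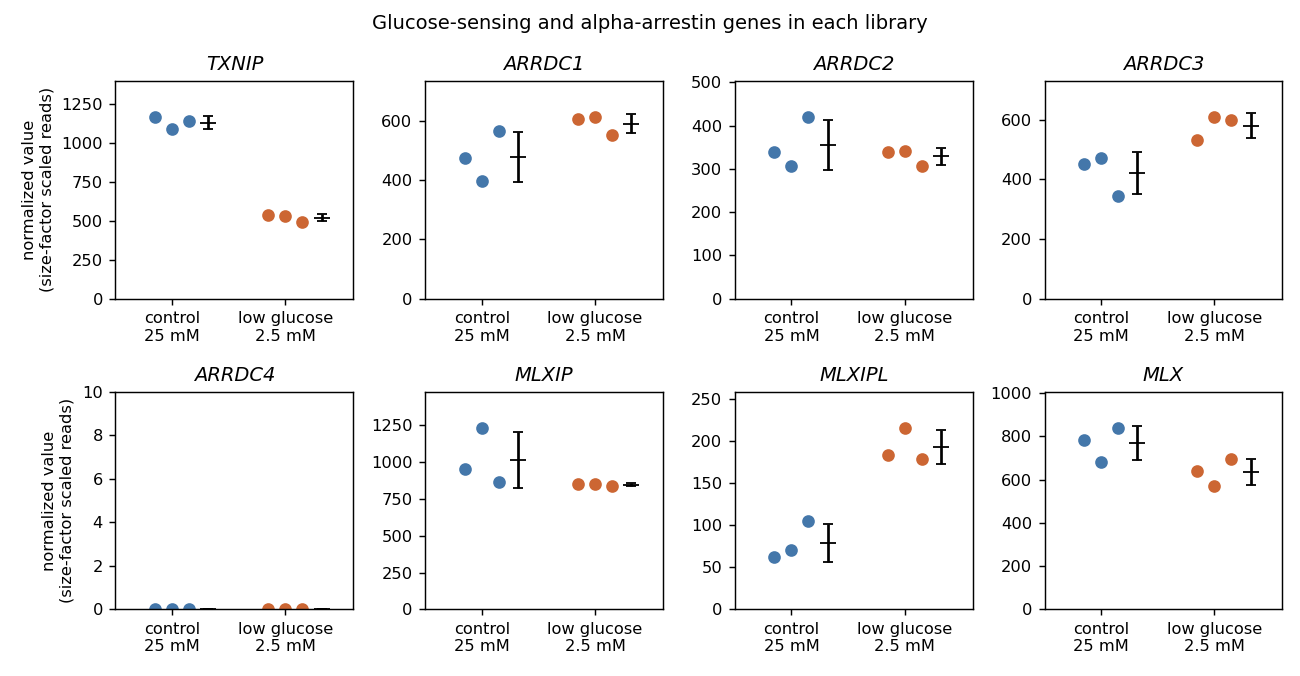
Normalized value (reads divided by the size factor of the library) of each of the 8 genes in the control (25 mM glucose, blue) and low-glucose (2.5 mM, orange) libraries, with the mean and SD (n = 3) beside the points and each axis starting at 0. TXNIP sits between 1086 and 1164 in control and between 493 and 534 in low glucose, MLXIPL rises, and ARRDC4 is at 0 throughout.

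ARRDC3 (ENSG00000113369.9, chromosome 5, 91368631 to 91383317, minus strand) encodes an alpha-arrestin known for the trafficking of the beta-2 adrenergic receptor and of integrin beta-4. It had 451, 471 and 342 normalized reads in control and 531, 608 and 598 in low glucose. All low-glucose libraries were above all control libraries, and control library 3 was the lowest. ARRDC3 rose by 0.47 on the log2 scale with a standard error of 0.116 (limma adjusted p = 0.00686). The call was lost without low-glucose replicate 2 (limma adjusted p = 0.0511) and without the third low-glucose library (0.0531). It was also lost with no trend in the variance model (0.0909). Over 17 alternatives the adjusted p ran from 9.46e-05 to 0.0909. ARRDC3-AS1, which shares 145 bp of exon on the opposite strand, had at most 24 reads.

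ARRDC1 (ENSG00000197070.14, chromosome 9, 137605685 to 137615360, plus strand) drives the budding of small vesicles from the plasma membrane. It had 473, 396 and 564 normalized reads in control and 606, 611 and 553 in low glucose. Control library 3 overlapped the low-glucose range. The log2 fold change of 0.32 (standard error 0.115) had a limma adjusted p of 0.0476, and 10 of 17 alternatives did not call it, with 0.00220 to 0.229 over all of them. It was lost when any library other than control library 3 was left out, and with a GC trend removed it was 0.18. ARRDC1-AS1, which shares 35 bp of exon on the opposite strand, rose with a log2 fold change of 0.58 (limma adjusted p = 0.0170).

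ARRDC2 (ENSG00000105643.10, chromosome 19, 18001132 to 18014102, plus strand) is a less studied member of the family. It had 340, 308 and 419 normalized reads in control and 339, 342 and 307 in low glucose, and these ranges overlapped. Its log2 fold change of -0.10 did not pass (95% interval -0.35 to 0.15, limma adjusted p = 0.559), and it was 0.024 without control library 3. ENSG00000279172 shares 442 bp of exon with ARRDC2 on the opposite strand and had 45 to 97 reads.

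The most GC-rich transcripts among the 8, MLXIPL (63.3% GC), ARRDC1 (63.0%) and ARRDC2 (61.5%), had their highest control value in control library 3, as did MLX (52.4%). MLXIP (57.1%, more GC-rich than MLX) and ARRDC3 (40.4%) had their highest control value in control library 2, and TXNIP (45.1%) in control library 1. Whether GC content bears on which control library was highest was not tested. The tendency of GC-rich genes to read higher ran from a Spearman's rho of -0.16 in control library 1 to 0.03 in control library 3, and from 0.01 to 0.10 in low glucose, across 15187 genes. With the GC trend removed, MLXIPL stood at 1.17 and TXNIP at -1.15 on the log2 scale.

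ARRDC4 (ENSG00000140450.9, chromosome 15, 97960703 to 97973833, plus strand) is, beside TXNIP, the arrestin gene best known to follow MondoA. It had 0 reads in 6 of 6 libraries and was not tested. A count of 0 allows up to 3 reads per library, which is 2.27 to 3.36 normalized reads. Per kilobase of exon, TXNIP was at least 366-fold above that limit in each control library and at least 201-fold in each low-glucose library. Among its neighbours on the chromosome, NR2F2 (1620 kb away, at lower coordinates) had 1257 to 1824 reads and IGF1R (675 kb away, at higher coordinates) had 359 to 610, whereas MCTP2 and PGPEP1L had 0. Whether the ARRDC4 locus is intact in these cells was not tested.

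Of the 7 genes with reads, 5 passed the test, 3 of them higher and 2 lower, beside 30.9% of all genes tested that passed (14.7% higher and 16.2% lower). The control and low-glucose libraries did not overlap for 4 of the 7 (TXNIP, ARRDC3, MLXIP and MLXIPL), beside 43.9% of all genes tested. An exact permutation test gave p = 0.1 (two-sided) for each of these 4, the smallest that 3 libraries against 3 allow. The calls of TXNIP and MLXIPL held in 17 of 17 alternatives, with log2 fold changes of -1.17 to -1.02 and 1.15 to 1.53. Calls of ARRDC1 and MLX lay close to the threshold.

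**Figure D2:**
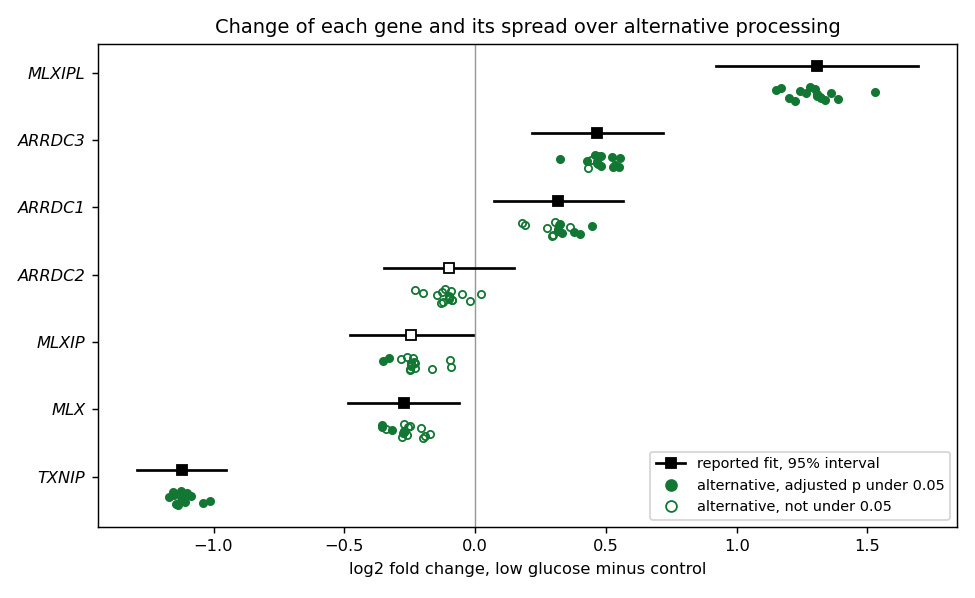
Log2 fold change (low glucose minus control) of the 7 genes with reads, as squares with 95% intervals (filled where the adjusted p was under 0.05), above the values under 17 alternatives (circles, filled likewise). TXNIP at -1.12 and MLXIPL at 1.31 stay filled throughout, whereas ARRDC1 and MLX are filled in a minority of alternatives.

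Levels of different genes were compared as normalized reads per kilobase of exon. In control, TXNIP was the highest of the 8 at 313 ± 11.0 (SD, n = 3), followed by MLX at 181 ± 18.5 (SD, n = 3) and ARRDC1 at 126 ± 22.2 (SD, n = 3). These did not overlap each other. ARRDC3 (84.6) overlapped ARRDC2 (76.7), which overlapped MLXIP (73.0), and MLXIPL lay apart below them as the lowest of the genes with reads at 16.4 ± 4.75 (SD, n = 3). In low glucose, ARRDC1 (156), MLX (149) and TXNIP (144) overlapped in that order. They were followed by ARRDC3 (116), ARRDC2 (71.0), MLXIP (61.0) and MLXIPL (40.0), with no overlap between neighbours. Exon length was taken over all annotated transcripts. With the length of the canonical transcript instead, TXNIP still led in control, but MLX (325.5) and ARRDC1 (307) overlapped there. ARRDC3 (99.4) then lay below ARRDC2 (142) and MLXIP (121) in control, with overlap between neighbours. In low glucose, ARRDC1 (379), MLX (269) and TXNIP (178) stood in this order without overlap, whereas ARRDC3 (137) and ARRDC2 (132) overlapped.

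**Figure D3:**
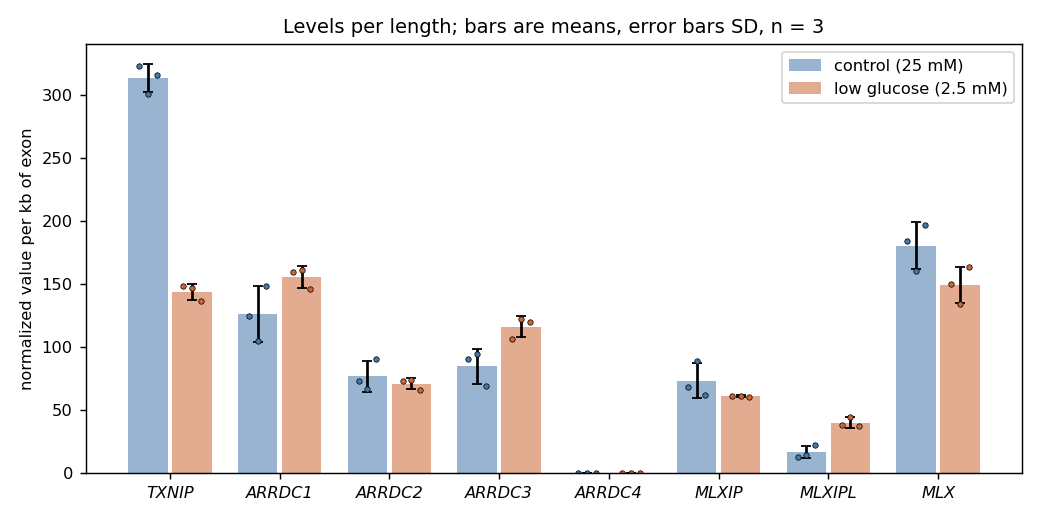
Normalized value per kilobase of exon for the 8 genes in control (blue) and low glucose (orange), as means with SD (n = 3) and 1 point per library. TXNIP leads in control at 313 and lies at 144, level with MLX and ARRDC1, in low glucose.

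The ratios that follow were chosen after the values were seen, and 4 were computed. TXNIP made up 52.8%, 53.2% and 50.6% of the summed per-kilobase level of the alpha-arrestins TXNIP and ARRDC1 to ARRDC4 in control, and 30.4%, 29.1% and 29.2% in low glucose. The ranges were far apart, with an exact permutation p of 0.1 (two-sided), the smallest possible. With canonical lengths the mean shares were 41.6% and 21.6%. The per-kilobase level of MLXIP was 5.35, 6.08 and 2.85 times that of MLXIPL in control and 1.61, 1.37 and 1.63 times in low glucose. MondoA transcript thus exceeded ChREBP transcript in every library, by less in low glucose (exact permutation p = 0.1, two-sided). Control library 3 lay between the other controls and the low-glucose libraries in this ratio. The level of MLX over the sum of MLXIP and MLXIPL was 2.26, 1.56 and 2.35 in control and 1.51, 1.27 and 1.68 in low glucose, and these overlapped (exact permutation p = 0.2, two-sided). TXNIP over ARRDC3 was 3.79 ± 0.731 (SD, n = 3) in control and 1.24 ± 0.131 (SD, n = 3) in low glucose, without overlap (exact permutation p = 0.1, two-sided). For this ratio and that of MLXIP to MLXIPL, the outcome was fixed in advance. Both genes of each pair had already separated the groups, in opposite directions. The same holds for the TXNIP share, since TXNIP and the summed level of ARRDC1 to ARRDC4 also separated the groups in opposite directions. The p-values of these ratios and of the share therefore add no test.

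**Figure D4:**
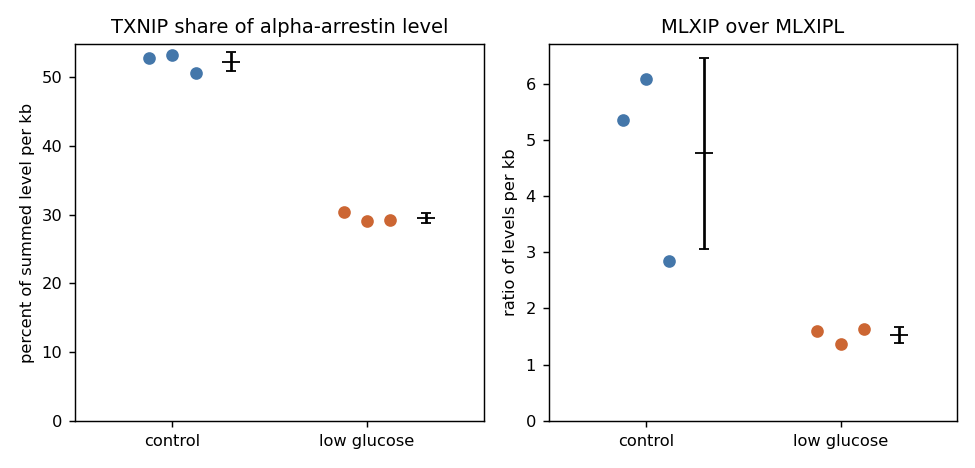
TXNIP as a percent of the summed per-kilobase level of the alpha-arrestins (left) and the ratio of the per-kilobase levels of MLXIP and MLXIPL (right), 1 point per library with the mean and SD (n = 3). The TXNIP share of 50.6% to 53.2% in control drops to between 29.1% and 30.4%, and the ratio of 2.85 to 6.08 in control drops to between 1.37 and 1.63.

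MLX also pairs with MXD1, MXD4 and MNT, which oppose the pair of MYC with MAX at E-boxes. Of these 5 genes, 3 rose and 0 fell, beside 14.7% of all genes tested that rose and 16.2% that fell, with a median log2 fold change of 0.45 beside 0.05 over all genes tested. MXD1 had 69.5 to 90.8 normalized reads in control. In low glucose it had 177 to 189, and it rose by 1.18 on the log2 scale with a standard error of 0.141 (limma adjusted p = 2.36e-05). MNT changed by 0.69 (limma adjusted p = 0.000135) and MYC by 0.45 (limma adjusted p = 0.000397). MXD4 (-0.18) and MAX (0.10) did not pass.

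Of 12 genes that bring glucose into the cell or make and clear glucose 6-phosphate, 9 were tested, 1 rose and 1 fell, fewer than the 30.9% called over all genes, with a median of -0.18. HK2, an inducible hexokinase, had 1518 to 2016 normalized reads in control. In low glucose it had 2299 to 2466, and it rose by 0.44 on the log2 scale (limma adjusted p = 0.00250). HK1, the constitutive hexokinase, fell by 0.43 on the log2 scale (limma adjusted p = 0.00276). SLC2A1, the basal glucose transporter that TXNIP helps to internalize, had a log2 fold change of 0.09 (limma adjusted p = 0.375). SLC2A2 and G6PC1, which belong to glucose handling in liver, had no reads.

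Of 16 other known targets of ChREBP or MondoA, 15 were tested, 5 fell and 2 rose, beside 16.2% of all genes that fell and 14.7% that rose, with a median of -0.16. The 5 that fell were the lipogenic genes FASN (-0.82, limma adjusted p = 1.38e-05), SCD (-0.74), ACLY (-0.60) and ACACA (-0.39), which are also targets of SREBP, and the lactate dehydrogenase gene LDHA (-0.40). ACACA was not called under 4 of 17 alternatives, without control library 1 and without the third low-glucose library among them. Besides HK2, which is on this list too, FGF21 was higher, a hormone gene that also responds to ATF4. FGF21 had 3 reads over the 3 control libraries and 39 over the 3 low-glucose libraries, a ratio of 10.5 (exact 95% counting interval 3.34 to 53.1). PKLR, the classical ChREBP target of liver, had a log2 fold change of -0.05 (limma adjusted p = 0.954), and KLF10 had 0.05 (0.750).

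Of the thioredoxin system and NLRP3, 5 of 6 genes were tested and 0 passed in limma, edgeR or DESeq2, with 1 gene (TXN) at an unadjusted limma p under the threshold. Under 5 of 17 alternatives 1 gene of this list passed. TXN, the thioredoxin that TXNIP binds, had 1190 to 2338 normalized reads in control. Low glucose gave 2168 to 2404, and the log2 fold change of 0.39 did not pass (limma adjusted p = 0.0982). Of the 9 NEDD4-family ligases, whose WW domains bind the PPxY motifs of alpha-arrestins, 1 rose and 2 fell, a share close to the 30.9% called over all genes, with a median of 0.03. HECW1 rose by 1.12 on the log2 scale (limma adjusted p = 0.000229), from 41.7 to 56.1 normalized reads in the controls to between 104 and 119. WWP1 fell by 0.56 (limma adjusted p = 0.000817) and WWP2 by 0.36 (limma adjusted p = 0.0437), and the call of WWP2 was lost under 9 of 17 alternatives, each single low-glucose library left out and control libraries 1 and 2 among them. Of 9 other arrestin-fold genes, 7 were tested, VPS26C, a retriever subunit, rose (0.44, limma adjusted p = 0.00107), 0 fell, and the median was -0.16, beside 30.9% called over all genes. The visual arrestin SAG and ARRDC5 had no reads, and ARRB1 (-0.17) and ARRB2 (-0.19) did not pass.

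**Figure D5:**
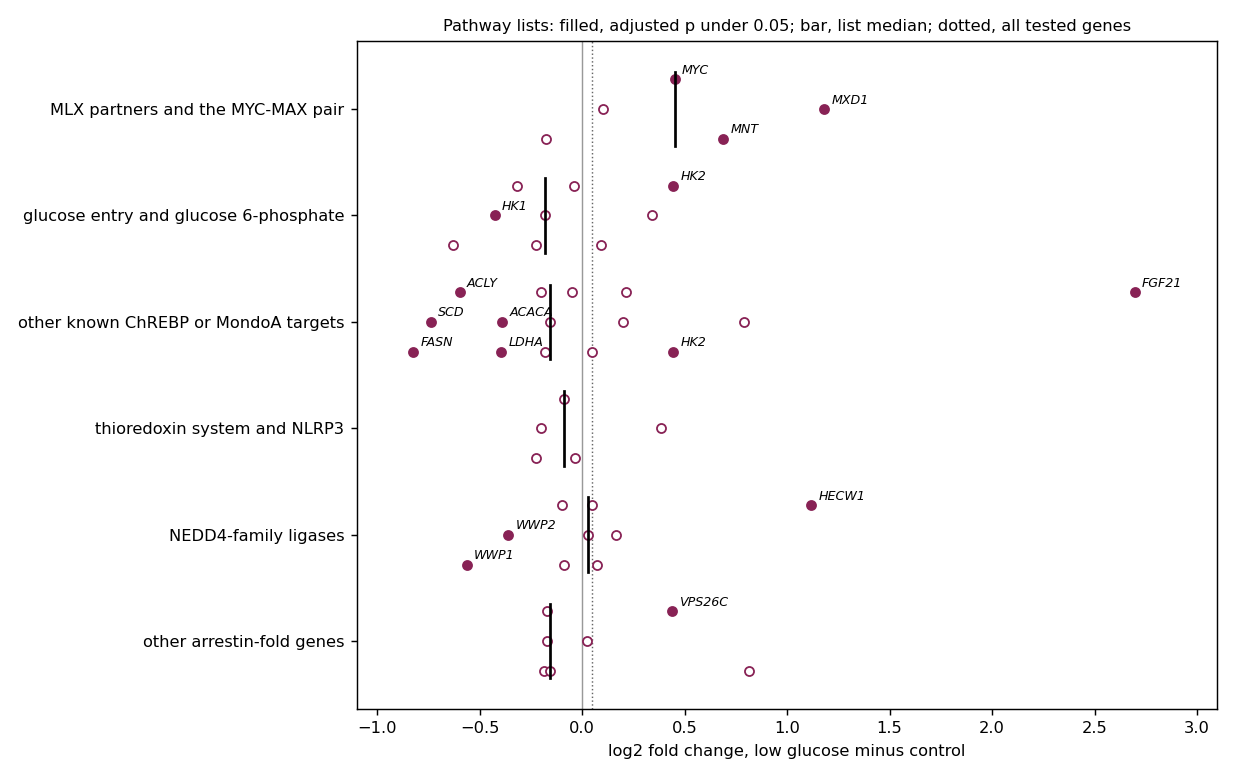
Log2 fold change (low glucose minus control) of the tested genes of 6 lists, filled and named where the adjusted p was under 0.05, with a bar at the median of each list and a dotted line at the median of all genes tested (0.05). MXD1, MNT and MYC lie to the right, FASN, SCD, ACLY, ACACA and LDHA to the left, and the point of FGF21 rests on 3 control reads.

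Among the 10148 other genes with a mean of at least 100 normalized reads, those most like TXNIP across the 6 libraries were DHX15, RECQL4, KIFC1, HFE and DCAF6, with Pearson's r of 0.998 to 0.999 on the log2 scale. All 5 were lower in low glucose, by log2 fold changes of -1.03 (KIFC1) to -0.32 (HFE). The call of HFE was lost under 6 of 17 alternatives, control library 1 and each single low-glucose library left out among them. The 6 libraries form 2 groups, and 20.1% of the compared genes had an r above 0.9. Of the 20 genes whose promoter window held the tandem motif, 17 were tested, and 3 rose and 3 fell, a share close to the 30.9% called over all genes, with a median of 0.12. GFPT1, the entry enzyme of the hexosamine pathway, rose by 1.34 on the log2 scale (limma adjusted p = 4.56e-08), and TXNIP had the largest fall. P4HA1 (0.36, limma adjusted p = 0.0132) and RCN3 (1.28, limma adjusted p = 0.0241) were also higher, but P4HA1 was not called without low-glucose replicate 1 or the third low-glucose library, nor RCN3 without control library 1 or low-glucose replicate 1 or 2. The calls of KCTD5 (-0.24) and RAN (-0.26), which were lower, were lost under 11 and 12 of 17 alternatives, control libraries 1 and 3 and each single low-glucose library left out among them.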

How the data were processed

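RNA from 3 control and 3 low-glucose samples of MiaPaCa-2 was sequenced by the authors as strand-specific libraries. According to the methods and the submitters' processing notes, reads were trimmed with Trim Galore, mapped to hg38 with STAR 2.7.0e and compared with DESeq2. RSEM, a quantification program, is on the study's software list, but the step it served, the strand setting of the counting and the annotation are not given in the sources used here. The deposited values are a signal: counts scaled by the authors with a single size factor for a library. All values (100%) came out as whole reads, within 0.01 reads, when divided by the value of 1 read, so reads were recovered, and median-of-ratios factors recomputed over 17906 genes matched. No authors' comparison columns were present, and 99.5% of identifiers matched Gencode v44 (hg38), which gave names, positions, exon lengths and GC.

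The test used log2 of the value plus a pseudocount of 1, for the 21101 genes whose mean reached 1, with limma 3.58.1 in R 4.3.3 (eBayes with trend, two-sided, Benjamini-Hochberg over all genes tested, threshold 0.05). Adjusted p-values are limma's unless another tool is named. The pseudocount understates changes of low genes. Alternatives were other scalings, filters, a pseudocount of 0.1, no variance trend, edgeR 4.0.16 and DESeq2 1.42.0 on recovered reads, and each library left out. Removal of GC or length trends (loess with a span of 0.3, fitted on genes whose mean reached 10) was added after the data were seen. Tested on simulated counts with 200 genes changed 2-fold, limma recovered 167 with 10 false among 177 calls (20576 genes). The simulated counts held no trend with GC or length and far fewer changed genes than were called here. This share of false calls therefore does not carry over to these data. The genes and the 6 lists were chosen with earlier results of these data known. Named were the 8 genes, the called genes of each list (at most 4 by size, and others of which the text speaks), and the 5 most like TXNIP by Pearson's r among genes whose mean reached 100. Genes with the tandem motif, genes that share exons and neighbours were looked up afterwards. The labels give independent biological replicates. Limits from a count of 0 and counting intervals cover counting error only.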

Additional observations from a re-analysis of the deposited data

How the results depend on the processing

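No paired analysis was possible because the labels tie only 2 of the 6 libraries, both low glucose, to a replicate. TXNIP kept its direction and call under all 17 alternatives (-1.15 to -1.09 with 1 library left out). Of the 7 tested genes of the set, 5 passed as reported, 3 passed with a pseudocount of 0.1 and with DESeq2, and 2 (TXNIP and MLXIPL) without the variance trend. With 1 library left out the number was 2 to 5. ARRDC2 reversed without control library 3, with a log2 fold change of 0.024 there and -0.20 to 0.024 over the single libraries left out, and never passed. Over all genes, 6528 passed as reported, 4090 without the variance trend, and 4298 to 7173 with 1 library left out, fewest without low-glucose replicate 1. Higher and lower calls numbered 3111 and 3417 as reported, 3930 and 2645 after scaling by library size, and 2681 and 4017 with the GC trend removed or 2844 and 4169 with the length trend removed. Of the 56 different genes on the 6 lists, some of them untested, 15 passed as reported and 11 to 21 under the alternatives. Beside this, 30.9% of all genes tested passed as reported. The 4 genes of the set whose libraries did not overlap were also 4 after scaling by library size. At 55 to 98 control reads, MLXIPL has the widest interval of the 7.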
